A study of Homo sapiens with 2 samples.

Results

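The MYC family and its MAX network were described here as 10 genes taken by name from a table of 26485 genes: MYC, MYCN and MYCL, their shared partner MAX, and the MAX-binding repressor genes MXI1, MXD1, MXD3, MXD4, MNT and MGA. All 10 names were present. RNA was sequenced from SK-LMS-1 and from SK-UT-1, established human leiomyosarcoma cell lines, each under the solvent DMSO alone and with 1 library. The series as a whole concerns an inhibitor of the histone methyltransferase SUV39H2 combined with a PARP inhibitor in uterine leiomyosarcoma, and the comparison made here asks how the network genes stood in the lines under solvent alone. The labels used here give neither the dose nor the duration of the solvent.

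MYC is a basic helix-loop-helix leucine zipper transcription factor that binds DNA as a pair with MAX, most strongly at the E-box sequence CACGTG, and raises transcription of genes for ribosome production, nucleotide synthesis and growth. MYCN and MYCL are related proteins whose expression is usually restricted to certain tissues and tumours. MXD1, MXI1 (also called MXD2), MXD3, MXD4, MNT and MGA also pair with MAX at E-boxes and act as repressors, the MXD proteins and MNT through SIN3 and histone deacetylases, MGA within a variant Polycomb complex known as PRC1.6. MXD proteins are best known from cells that leave the cell cycle and differentiate, whereas MNT is present in most cells, and MYC is one of the genes most often altered in human cancer.

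The SK-LMS-1 library held 6906280 counts and the SK-UT-1 library 7635850. Levels between the lines are given in CPM, counts relative to the library size after TMM scaling (the trimmed mean of M values). Levels between genes are given in TPM, which first divides each count by the exon length. Genes with at least 1 CPM in whichever library was higher, 14324 in all, are called measured. With 1 library per line no test between lines was possible, no p-value is given, and each difference compares these libraries only. The range in parentheses after a value is its exact 95% interval, which covers counting error alone. Of markers of other cell types, 7 leukocyte genes summed to 0.610 CPM (SK-LMS-1) and 1.49 CPM (SK-UT-1), 5 endothelial genes to 1.53 CPM (SK-LMS-1) and 1.37 CPM (SK-UT-1), and 7 epithelial genes to 11.9 CPM (SK-LMS-1) and 21.5 CPM (SK-UT-1). Most of the epithelial sum was KRT19, a keratin gene, at 9.92 CPM in SK-LMS-1 against 19.3 CPM in SK-UT-1, where its 40.7 TPM lay above 65.5% of measured genes. Of these lists, 4 leukocyte, 3 endothelial and 4 epithelial genes had 0 counts in SK-LMS-1, against 5, 4 and 2 in SK-UT-1. Of 11 smooth muscle genes 10 were measured, of which 5 passed 2-fold towards SK-LMS-1, 3 towards SK-UT-1 and 2 neither way. Past 2-fold were thus 80% of the 10, against 40.2% of all measured genes. All 11 summed to 1523 CPM in SK-LMS-1 against 574 CPM in SK-UT-1. The actin-binding gene CALD1, the highest of the list, stood at 749 CPM in SK-LMS-1 against 343 CPM in SK-UT-1. On this list MYH11 was low (0.763 CPM in SK-LMS-1 against 0.248 CPM in SK-UT-1). So was DES (0.153 CPM in SK-LMS-1 against 3.23 CPM in SK-UT-1). Both were named after their values were seen and do not stand for the list as a whole. The rest of the list is not named here. In such bulk samples fewer cells of a type and less RNA per cell cannot be told apart.

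The E-box that the network binds was looked for in the promoters of the members themselves. Windows of 250 bases before the RefSeq gene start (GRCh38.p14) were available for 9 of the 10 genes, all but MYC. CACGTG, which reads the same on both strands, was present in the windows of MXD4 and MNT (22.2%). The windows of MAX and MYCL began inside annotated exons. Those of MXD4, MYCN, MXD1, MNT and MXD3 ran into annotated exons after 65, 138, 182, 192 and 245 bases. That of MGA lay before a start at 41621224, whereas its counted exons begin at 41660412. Of all 27305 promoters in the same source, 1772 held CACGTG (6.49%), as did 8.98% of the promoters of measured genes. The 9 windows are too few for a comparison with these shares. The motif stood 238 bases before the start of MXD4 and 193 bases before that of MNT. The sequences of both are shown because these repressor genes carry the motif and differed between the lines in opposite directions. MXI1 is shown as a repressor gene of the same family whose window held no CACGTG. Each is cut to the part outside annotated exons, with the E-box in capitals, for MXD4 at chr4:2262295-2262359 on the minus strand, for MNT at chr17:2401119-2401310 on the minus strand and for MXI1 at chr10:110207355-110207604 on the plus strand.
MXD4: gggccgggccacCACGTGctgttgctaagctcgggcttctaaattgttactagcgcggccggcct
MNT: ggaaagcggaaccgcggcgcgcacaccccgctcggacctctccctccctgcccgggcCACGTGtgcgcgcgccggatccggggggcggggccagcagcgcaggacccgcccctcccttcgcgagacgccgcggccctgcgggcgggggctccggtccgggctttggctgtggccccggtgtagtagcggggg
MXI1: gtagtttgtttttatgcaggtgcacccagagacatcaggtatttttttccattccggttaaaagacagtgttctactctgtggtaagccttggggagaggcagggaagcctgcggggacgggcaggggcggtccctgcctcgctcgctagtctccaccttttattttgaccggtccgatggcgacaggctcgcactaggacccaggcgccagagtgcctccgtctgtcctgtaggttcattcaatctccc

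Per exon length MYC was the leading member in both lines. It differed little between them, while the repressor genes were split. MXI1 and MXD1 were higher in SK-LMS-1 by at least 2-fold, MXD4 and MXD3 were higher in SK-UT-1 by at least 2-fold, and of these libraries only that of SK-UT-1 held counts of MYCL. MYC, MAX, MNT and MGA lay within 2-fold. MYCN had 0 counts in both libraries. Of the 9 measured members, 2 (MXI1 and MXD1) passed 2-fold towards SK-LMS-1, as did 21.9% of all measured genes, and 3 (MYCL, MXD3 and MXD4) towards SK-UT-1, as did 18.3%. In either direction 5 of 9 passed 2-fold, against 40.2% of all measured genes. At 4-fold there were 0 members towards SK-LMS-1 (11.4% of measured genes) and 1, MYCL, towards SK-UT-1 (7.3%), against 18.7% of measured genes in either direction. The median log2 ratio (SK-LMS-1 over SK-UT-1) was 0.31 over the measured members and 0.01 over all measured genes.

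**Figure D1:**
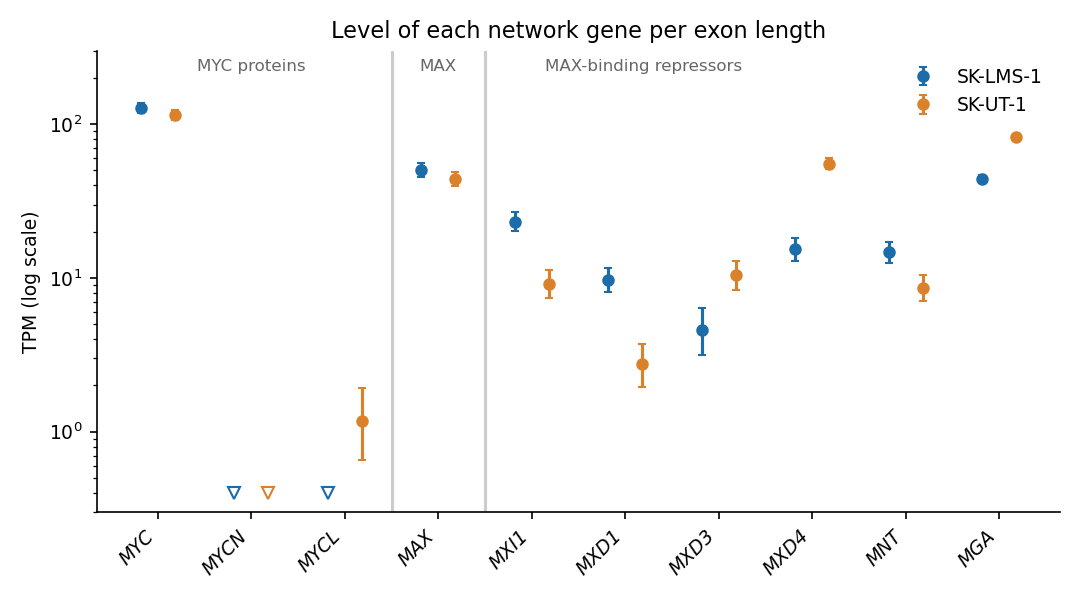
Level of each network gene in TPM on a log axis, by line, SK-LMS-1 left of SK-UT-1. Bars are exact 95% Poisson intervals and open triangles mark libraries with 0 counts. MYC is the highest point in both lines, MXI1, MXD1 and MNT are higher in SK-LMS-1, and MXD3, MXD4 and MGA in SK-UT-1.

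MYC had 713 counts (SK-LMS-1) and 706 counts (SK-UT-1), which correspond to 109 CPM (101 to 117) in SK-LMS-1 against 87.7 CPM (81.4 to 94.4) in SK-UT-1. It was higher by 1.24-fold in SK-LMS-1 (1.12 to 1.38). Scaled by library totals instead, its log2 ratio of 0.31 became 0.16 (0.01 to 0.31). Per exon length MYC reached 128 TPM in SK-LMS-1 against 115 TPM in SK-UT-1, above 89.9% of measured genes in SK-LMS-1 and 87.4% of them in SK-UT-1. MYC spans chromosome 8, 127736069 to 127741434 in hg38, on the plus strand.

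MYCN, the family member best known from neuroblastoma, was not detectable at this depth. An exact 95% upper limit for 0 counts is 0.563 CPM for SK-LMS-1 and 0.458 CPM for SK-UT-1. MYCL, first described in small cell lung cancer, had 0 counts in SK-LMS-1 against 15 counts (1.86 CPM) in SK-UT-1. With the 0 counts of SK-LMS-1 raised to a floor of 3, it was higher in SK-UT-1 by 4.07-fold. The lower 95% limit, taken from the counts without the floor, was 2.92-fold. Its level in SK-UT-1 was low, 1.17 TPM (0.655 to 1.93), above 10.9% of measured genes. Of the counts of these 3 genes, MYC held 713 of 713 in SK-LMS-1 against 706 of 721 in SK-UT-1. MYCN spans chromosome 2, 15940438 to 15947007 on the plus strand, and MYCL chromosome 1, 39895424 to 39902015 on the minus strand.

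MAX, the partner that the other members share, had 358 counts (SK-LMS-1) and 347 counts (SK-UT-1). These correspond to 54.6 CPM (49.1 to 60.6) in SK-LMS-1 against 43.1 CPM (38.7 to 47.9) in SK-UT-1, higher by 1.27-fold in SK-LMS-1 (1.09 to 1.47). Scaled by library totals the log2 interval of MAX, -0.03 to 0.41, included 0. MYC and MAX kept nearly the same proportion in the lines. Per exon length MYC stood at 2.56 times MAX in SK-LMS-1 (2.25 to 2.91) against 2.61 times MAX in SK-UT-1 (2.29 to 2.98), a ratio within each library that no scaling between libraries can move. MAX spans chromosome 14, 65006101 to 65102695, on the minus strand.

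MXI1 and MXD1, repressors that compete with MYC for MAX, were higher in SK-LMS-1. MXI1 had 210 counts (32.0 CPM) in SK-LMS-1 against 91 counts (11.3 CPM) in SK-UT-1, higher by 2.83-fold in SK-LMS-1 (2.21 to 3.67). MXD1, the founding member of the MXD group, had 128 counts (19.5 CPM) in SK-LMS-1 against 40 counts (4.97 CPM) in SK-UT-1, higher by 3.93-fold in SK-LMS-1 (2.74 to 5.76). With TMM both intervals lay wholly beyond 2-fold. Scaled by library totals, that of MXI1 was 1.99 to 3.30. Ratios larger in size than that of MXD1 were seen for 19.0% of all measured genes, and larger than that of MXI1 for 26.8%. MXI1 lies on chromosome 10, 110207605 to 110287365, and MXD1 on chromosome 2, 69915041 to 69942944, both on the plus strand.

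MXD4 and MXD3 went the other way. MXD4, which competes with MYC for MAX as the other MXD proteins do, had 137 counts (20.9 CPM) in SK-LMS-1 against 541 counts (67.2 CPM) in SK-UT-1. It was higher by 3.21-fold in SK-UT-1 (2.66 to 3.91), an interval wholly beyond 2-fold. MXD3, the member of the group known in mouse from cells in S phase, was the lowest repressor in SK-LMS-1, with 34 counts (5.19 CPM) against 85 counts (10.6 CPM) in SK-UT-1. It was higher by 2.04-fold in SK-UT-1 (1.35 to 3.13), just inside the 2-fold rule, and with the deeper library thinned to the depth of the other its log2 ratio of -0.99 lay just outside. MXD3 shares 731 bases (23.1% of its exon length) with PRELID1 on the opposite strand, which stood at 62.7 CPM in SK-LMS-1 against 96.0 CPM in SK-UT-1. Counting was set to use strand, and how well the libraries keep strand was not tested. MXD4 shares 80 bases (2.12%) with MIR4800 on its own strand. MXD4 lies on chromosome 4, 2247433 to 2262012, and MXD3 on chromosome 5, 177305500 to 177312291, both on the minus strand.

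MNT and MGA, the larger repressors, differed by less than 2-fold in opposite directions. MNT, a broadly expressed antagonist of MYC, had 167 counts (25.5 CPM) in SK-LMS-1 against 108 counts (13.4 CPM) in SK-UT-1, higher by 1.90-fold in SK-LMS-1 (1.48 to 2.44), just outside the 2-fold rule. MGA, which also carries a T-box DNA-binding domain, had the most counts of any member, 1249 (191 CPM) in SK-LMS-1 against 2571 (319 CPM) in SK-UT-1. It was higher by 1.68-fold in SK-UT-1 (1.57 to 1.79), the narrowest interval of the member ratios. Its log2 ratio of -0.74 became -0.90 when scaled by library totals. MNT lies on chromosome 17, 2384060 to 2400964 on the minus strand, and MGA on chromosome 15, 41660412 to 41769943 on the plus strand.

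**Figure D2:**
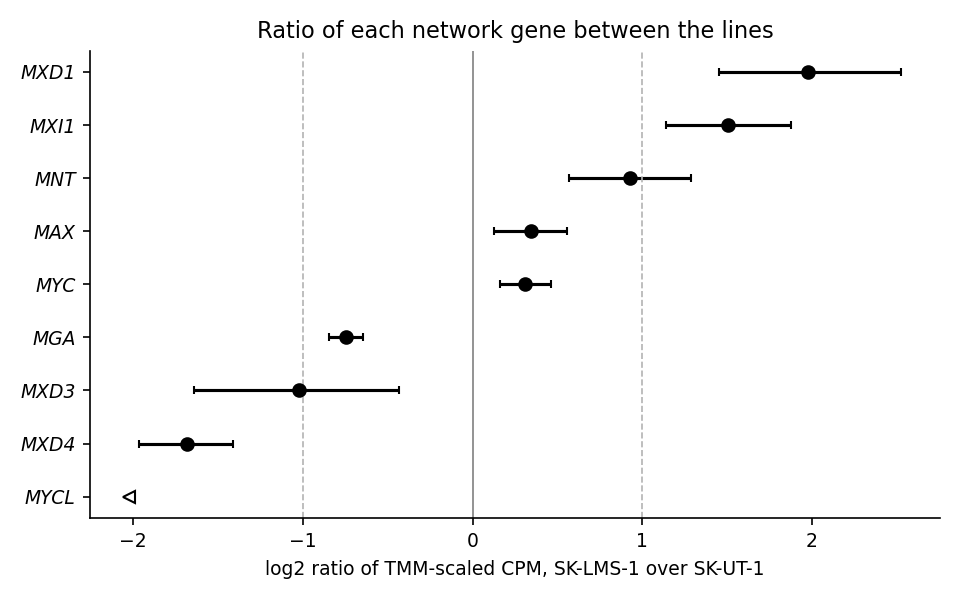
Log2 ratio of TMM-scaled CPM for the 9 measured members, SK-LMS-1 over SK-UT-1, with exact 95% intervals (dots and bars). Dashed lines mark 2-fold, and the open triangle for MYCL is the ratio against the floor of 3 counts in SK-LMS-1. MXD1 and MXI1 lie right of the 2-fold line and MXD4 left of it with their whole intervals.

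The order of the members per exon length was led by MYC in both lines and differed below it. In SK-LMS-1 it ran from MYC (128 TPM) through MAX (50.1), MGA (44.1), MXI1 (23.3), MXD4 (15.4), MNT (14.7) and MXD1 (9.69) to MXD3 (4.57 TPM). The neighbours MXD4 and MNT in that order could not be told apart (per-length ratio 1.05, 0.834 to 1.33), and MAX stood only just above MGA (1.14, 1.01 to 1.28). In SK-UT-1 the order ran from MYC (115 TPM) through MGA (82.4), MXD4 (55.3), MAX (44.1), MXD3 (10.4), MXI1 (9.16), MNT (8.61) and MXD1 (2.75) to MYCL (1.17 TPM). There MXD3 could not be told apart from MXI1, nor MXI1 from MNT (MXD3 over MXI1 1.13, 0.833 to 1.54, and MXI1 over MNT 1.06, 0.796 to 1.42). MXD4 stood at 0.308 times MAX in SK-LMS-1 (0.251 to 0.376) against 1.25 times MAX in SK-UT-1 (1.09 to 1.44). MGA stood at 0.880 times MAX in SK-LMS-1 (0.782 to 0.992) against 1.87 times MAX in SK-UT-1 (1.67 to 2.10). Both thus lay below the shared partner in SK-LMS-1 and above it in SK-UT-1. The other 4 repressor genes lay below MAX in both lines. MXI1 stood at 0.465 times MAX in SK-LMS-1 (0.390 to 0.552) against 0.208 times MAX in SK-UT-1 (0.163 to 0.262), and MXD1 at 0.193 times MAX in SK-LMS-1 (0.157 to 0.237) against 0.0623 times MAX in SK-UT-1 (0.0438 to 0.0866). MXD3 stood at 0.0912 times MAX in SK-LMS-1 (0.0622 to 0.130) against 0.235 times MAX in SK-UT-1 (0.183 to 0.299). MNT stood at 0.293 times MAX in SK-LMS-1 (0.242 to 0.353) against 0.195 times MAX in SK-UT-1 (0.156 to 0.243). These ratios within a library follow the direction of each repressor gene between the lines. They rest on the same counts and are no separate evidence for it.

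Summed per exon length, the 6 repressor genes reached 112 TPM in SK-LMS-1 against 169 TPM in SK-UT-1, while the genes of the MYC proteins summed to 128 TPM in SK-LMS-1 against 116 TPM in SK-UT-1. The repressor sum was 0.872 times the MYC sum in SK-LMS-1 against 1.45 times the MYC sum in SK-UT-1. In CPM, which leaves out exon length, it was 2.70 times the MYC sum in SK-LMS-1 against 4.77 times in SK-UT-1, so that only the order of the lines, and not which sum is larger in SK-LMS-1, held on both scales. MGA was the largest part of the repressor sum in both lines, 39.5% in SK-LMS-1 against 48.9% in SK-UT-1. MXI1 came second in SK-LMS-1, with 20.8% there and 5.43% in SK-UT-1. MXD4 came second in SK-UT-1, with 13.8% in SK-LMS-1 against 32.8% in SK-UT-1. MNT made up 13.1% in SK-LMS-1 against 5.10% in SK-UT-1, MXD1 8.67% in SK-LMS-1 against 1.63% in SK-UT-1, and MXD3 4.09% in SK-LMS-1 against 6.15% in SK-UT-1. MXI1 and MXD1 together came to 33.0 TPM in SK-LMS-1 against 11.9 TPM in SK-UT-1. Their sum was 1.65 times that of MXD3 and MXD4 in SK-LMS-1 against 0.181 times that sum in SK-UT-1. TPM sums rest on the exon length of all transcripts listed for a gene, so a line that uses shorter or longer isoforms would shift them.

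**Figure D3:**
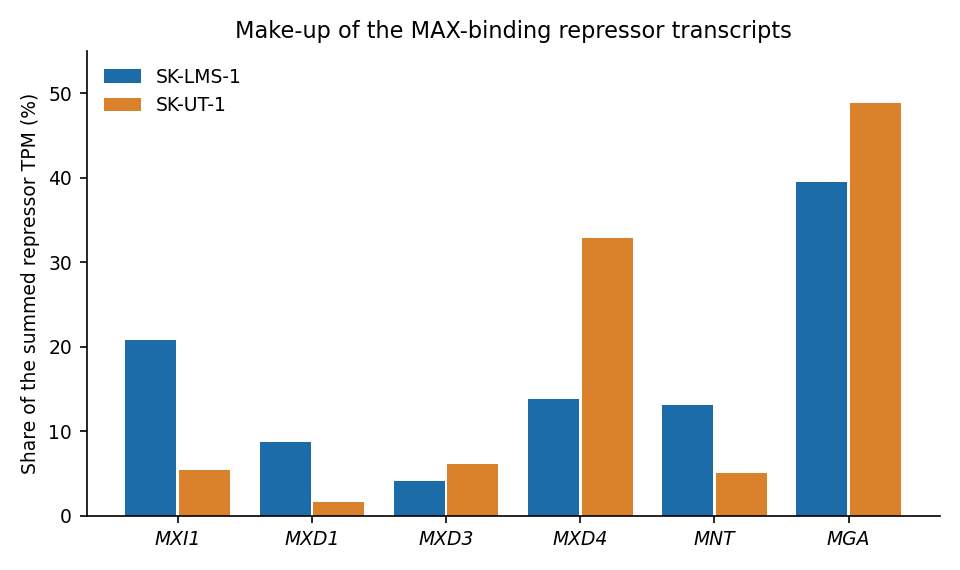
Share of each repressor gene in the summed TPM of the 6 MAX-binding repressor genes, in percent, SK-LMS-1 left of SK-UT-1, 1 library each. MGA takes the tallest bar in both lines, and MXI1 and MXD4 exchange second place.

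The parallel branch of the network uses MLX in place of MAX. MLX, which pairs with MLXIP (MondoA) and can also pair with MXD1, MXD4 and MNT, stood at 17.7 CPM in SK-LMS-1 against 41.6 CPM in SK-UT-1, higher by 2.35-fold in SK-UT-1 (1.90 to 2.93). Of the 5 genes listed for this branch, 0 were higher in SK-LMS-1 by at least 2-fold, 2 in SK-UT-1, while 3 lay within 2-fold, with a median log2 ratio of -0.84 (-0.36 over those with 5 CPM or more). That is 2 of 5 past 2-fold, close to the 40.2% of all measured genes. The other past 2-fold, named after its values were seen, was MLXIPL (ChREBP), a glucose-responsive partner of MLX, with 0 counts in SK-LMS-1 against 11 in SK-UT-1.

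Genes that act with MYC or on it lay mostly within 2-fold, as did 59.8% of all measured genes. Of 21 MYC cofactors, 20 lay within 2-fold (median -0.23). KAT2A, a histone acetyltransferase brought in by MYC, was the exception at 13.9 CPM in SK-LMS-1 against 49.1 CPM in SK-UT-1, higher by 3.53-fold in SK-UT-1 (2.81 to 4.49). Of 17 genes of MYC protein turnover, 1 was higher in SK-LMS-1 by at least 2-fold, 3 in SK-UT-1, while 13 lay within 2-fold (median -0.18). FBXO32, a ubiquitin ligase subunit of muscle atrophy, stood at 70.8 CPM in SK-LMS-1 against 0.497 CPM (4 counts) in SK-UT-1, higher by 142-fold in SK-LMS-1 (55.3 to 525). SKP2, an F-box protein that marks MYC for degradation and aids its activity, was higher by 3.73-fold in SK-UT-1 (3.30 to 4.22), and FBXL14, also an F-box protein, 2.18-fold (1.58 to 3.05). The third was PPP2R5A, a phosphatase 2A subunit named after its values were seen, at 39.4 CPM in SK-LMS-1 against 82.1 CPM in SK-UT-1.

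Of 16 genes that control MYC or MYCN RNA, 2 were higher in SK-LMS-1 by at least 2-fold, 1 in SK-UT-1, while 13 lay within 2-fold (median -0.10). With library totals or upper quartiles as the scale, these counts were 2 and 2. With TMM, 18.8% of the list passed 2-fold, against 40.2% of all measured genes. IGF2BP1, an RNA-binding protein that stabilises MYC mRNA, stood at 14.3 CPM in SK-LMS-1 against 93.7 CPM in SK-UT-1, higher by 6.53-fold in SK-UT-1 (5.26 to 8.18). Those higher in SK-LMS-1, both low and named after their values were seen, were LIN28B (30 counts in SK-LMS-1 against 0 in SK-UT-1) and ZFP36 (27 counts in SK-LMS-1 against 14 in SK-UT-1), which also bind RNA.

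Corepressors of the MXD proteins and MNT went both ways, with a median ratio below 0. Of 21 genes of SIN3 and histone deacetylase corepressor complexes, 6 were higher in SK-UT-1 by at least 2-fold, 1 was lower there by as much and 14 lay within 2-fold (median -0.29). In either direction 33.3% passed 2-fold, against 40.2% of all measured genes, of which 18.3% were higher in SK-UT-1 and 21.9% in SK-LMS-1. With a 1.5-fold rule, 7 corepressor genes were higher in SK-UT-1 and 4 in SK-LMS-1. RBBP4, a histone-binding subunit shared by several complexes, stood at 181 CPM in SK-LMS-1 against 547 CPM in SK-UT-1, higher by 3.02-fold in SK-UT-1 (2.83 to 3.23). ARID4B, a SIN3 subunit, was higher by 2.28-fold in SK-UT-1 (2.001 to 2.61). Of 14 partners of MGA in the PRC1.6 complex, 3 of which the corepressor or cofactor lists also hold (WDR5, HDAC1 and HDAC2), 13 lay within 2-fold (median -0.26). Past 2-fold were thus 7.14% of these partners, against 40.2% of all measured genes. L3MBTL2, the partner that passed 2-fold, stood at 25.9 CPM in SK-LMS-1 against 69.0 CPM in SK-UT-1. L3MBTL2 was higher by 2.66-fold in SK-UT-1 (2.23 to 3.17), the same direction as MGA. The partners did not all follow MGA: with a 1.5-fold rule, 2 passed towards SK-UT-1 and 3 towards SK-LMS-1. Their summed level was 1447 CPM in SK-LMS-1 against 1439 CPM in SK-UT-1.

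Genes known to be induced by MYC mostly lay within 2-fold, as did 59.8% of all measured genes. Their median ratio was below 0, towards SK-UT-1. Of 73 such genes, 3 were higher in SK-LMS-1 by at least 2-fold (21.9% of all measured genes) and 12 in SK-UT-1 (18.3%). The other 58 lay within 2-fold. The median log2 ratio was -0.49, against 0.01 over all measured genes. Library totals moved the log2 ratio of every gene by -0.15 against TMM, and the counts past 2-fold were then 0 and 19. LYAR, a nucleolar protein, was higher by 3.30-fold in SK-UT-1 (2.83 to 3.87), and CDC25A, a phosphatase that drives entry into S phase, 3.20-fold (2.70 to 3.82). ODC1, the first enzyme of polyamine synthesis, was higher by 2.12-fold in SK-LMS-1 (1.998 to 2.25), and IMPDH2, of guanine nucleotide synthesis, 2.07-fold (1.89 to 2.26). The third, named after its values were seen, was PRMT3, an arginine methyltransferase, at 2.01-fold (1.73 to 2.33). Proliferation markers moved with this list: 8 of 8 were lower in SK-LMS-1, and 1 of them, TOP2A (704 CPM in SK-LMS-1 against 1762 CPM in SK-UT-1), passed 2-fold. Their median was -0.41 and their summed level 2853 CPM in SK-LMS-1 against 4588 CPM in SK-UT-1, and the part of proliferation in the result was not tested. Of 61 promoters available for the induced genes, 15 held CACGTG (24.6%), against 6.49% of all promoters and 8.98% of the 10395 promoters of measured genes.

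Genes known to be repressed by MYC went both ways. Of 17 measured genes, 5 were higher in SK-LMS-1 by at least 2-fold, 5 in SK-UT-1, while 7 lay within 2-fold (median 0.33). In either direction 58.8% passed 2-fold, against 40.2% of all measured genes. Promoters were available for 14 of the 18 genes listed, too few for a check of that list, and 3 of them held CACGTG (21.4%). CDKN1A, the cell cycle inhibitor p21, stood at 29.8 CPM in SK-LMS-1 against 4.35 CPM in SK-UT-1, higher by 6.84-fold in SK-LMS-1 (4.76 to 10.1). CDKN2B, the inhibitor p15, was higher by 2.36-fold in SK-UT-1 (1.77 to 3.17). CDH2, the adhesion molecule N-cadherin, was higher by 44.6-fold in SK-LMS-1 (37.4 to 53.7), and NDRG4, of the NDRG family, higher by 28.6-fold in SK-UT-1 (14.3 to 66.9). Named after their values were seen, the others higher in SK-LMS-1 were THBS1, NDRG1 and GADD45B, and the others higher in SK-UT-1 were NDRG2, GAS1 and CDKN1C, which had 1 or 2 counts each in SK-LMS-1.

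**Figure D4:**
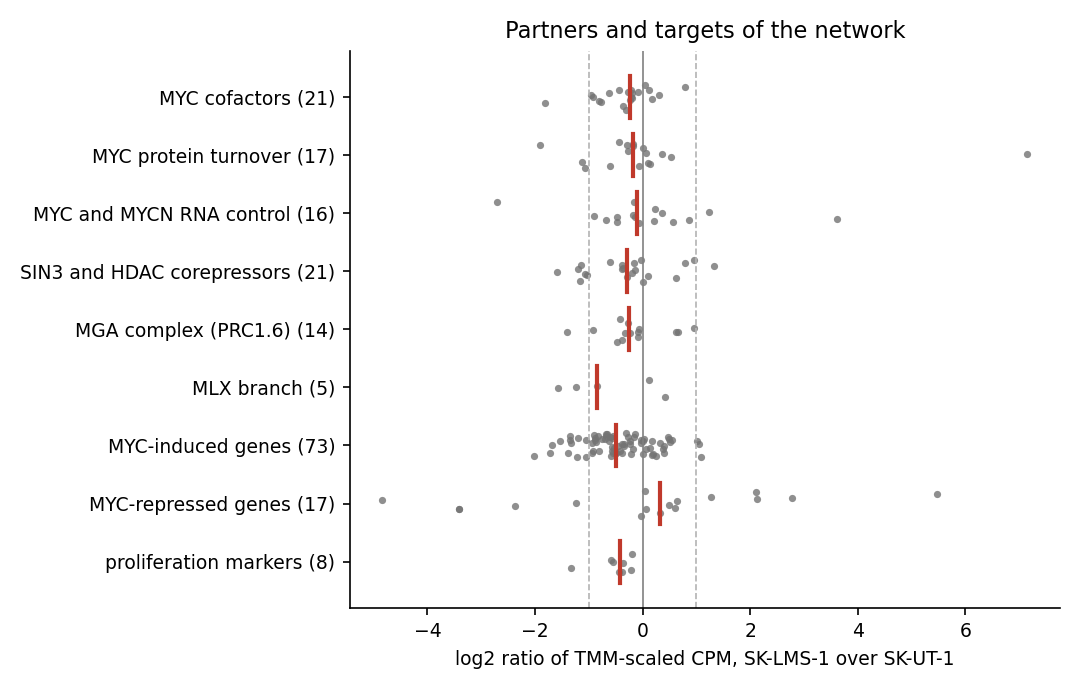
Log2 ratio of TMM-scaled CPM, SK-LMS-1 over SK-UT-1, for the measured genes of each list (grey points, number of genes in parentheses), with the list median as a red bar. Dashed lines mark 2-fold. Most lists have their median a little below 0, and the MYC-repressed genes have points far to either side.

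The surroundings of the MYC family genes were compared with the genes themselves. Beside MYC, the long non-coding RNA PVT1, often gained together with MYC in tumours, stood at 13.7 CPM in SK-LMS-1 against 7.58 CPM in SK-UT-1, higher by 1.81-fold in SK-LMS-1 (1.30 to 2.55). The other nearest genes, CASC11, CASC8 and MIR1204, had at most 3 counts in either library. Of 11 measured genes listed around MYC, 2 were higher in SK-LMS-1 by at least 2-fold, 1 in SK-UT-1, while 8 lay within 2-fold (median 0.13), and with library totals these counts were 2 and 2. With TMM, 27.3% of the 11 passed 2-fold, against 40.2% of all measured genes. MTSS1, an actin regulator, was higher by 23.1-fold in SK-LMS-1 (9.55 to 72.8), and TMEM65, a membrane protein gene, 4.15-fold (3.16 to 5.53). The gene higher in SK-UT-1, named after its values were seen, was CCAT1, a long non-coding RNA, with 0 counts in SK-LMS-1 against 31 in SK-UT-1.

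The genes nearest to MYCN had at most 1 count: MYCNUT, LOC101926966 and GACAT3 had 0 counts in both libraries and FAM49A had 0 in SK-LMS-1 against 1 in SK-UT-1. DDX1 and NBAS, which lie farther out and were named after their values were seen, were expressed: DDX1 at 153 CPM in SK-LMS-1 against 162 CPM in SK-UT-1, and NBAS at 181 CPM in SK-LMS-1 against 114 CPM in SK-UT-1. Of 8 measured genes listed around MYCN, 2 were higher in each line by at least 2-fold and 4 lay within 2-fold (median 0.02, and 0.39 over those with 5 CPM or more). Thus 50% of the 8 passed 2-fold, against 40.2% of all measured genes. TRIB2, a pseudokinase, was higher in SK-LMS-1 by 25.0-fold against the floor, with a lower 95% limit of 19.7. LPIN1, a phosphatase of lipid synthesis, was higher there by 3.55-fold (3.06 to 4.13). Those higher in SK-UT-1, named after their values were seen, were GREB1 and KCNS3, with 1 count each in SK-LMS-1 against 25 and 16 in SK-UT-1.

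Around MYCL, 7 of 15 measured genes were higher in SK-UT-1 by at least 2-fold, as were MYCL and 18.3% of all measured genes. A further 1 was so in SK-LMS-1 (21.9%) and the remaining 7 lay within 2-fold (median -0.67, and -0.034 over those with 5 CPM or more). Of the genes nearest to MYCL, BMP8B, a growth factor of the BMP family, had 0 counts in SK-LMS-1 against 44 in SK-UT-1. Against the floor it was higher by 11.9-fold in SK-UT-1 (lower 95% limit 9.31). MFSD2A, a lipid transporter, stood at 3.82 CPM in SK-LMS-1 against 12.9 CPM in SK-UT-1, and TRIT1, which modifies tRNA, at 22.7 CPM in SK-LMS-1 against 36.3 CPM in SK-UT-1. CAP1, an actin regulator, went the other way, with 635 CPM in SK-LMS-1 against 460 CPM in SK-UT-1. HEYL, a target of Notch, was higher against the floor by 45.6-fold in SK-UT-1 (lower 95% limit 36.7). SMAP2, of vesicle transport, was higher by 5.52-fold in SK-LMS-1 (4.50 to 6.82). Among the genes next to MXD4, named after their values were seen, HAUS3 stood at 29.9 CPM in SK-LMS-1 against 60.6 CPM in SK-UT-1 and ZFYVE28 at 3.66 CPM in SK-LMS-1 against 7.45 CPM in SK-UT-1, in the direction of MXD4. POLN stood at 4.12 CPM in SK-LMS-1 against 2.73 CPM in SK-UT-1 (1.51-fold, 0.827 to 2.78), and CFAP99 had 0 counts in both. Neighbours of other repressor genes, also named after their values were seen, did not all follow them. Beside MXD1, SNRNP27 (1.28-fold) and GMCL1 (1.31-fold) were higher in SK-UT-1. PCBP1-AS1 was 1.63-fold higher there, with an interval that included 1 (0.783 to 3.57). Beside MXI1, SMNDC1 was higher in SK-UT-1 (1.51-fold) and DUSP5 in SK-LMS-1 (1.26-fold). ADD3 was 1.16-fold higher in SK-LMS-1, with an interval that included 1 (0.989 to 1.35). The neighbours of MXD3, MNT and MGA are not described here.

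**Figure D5:**
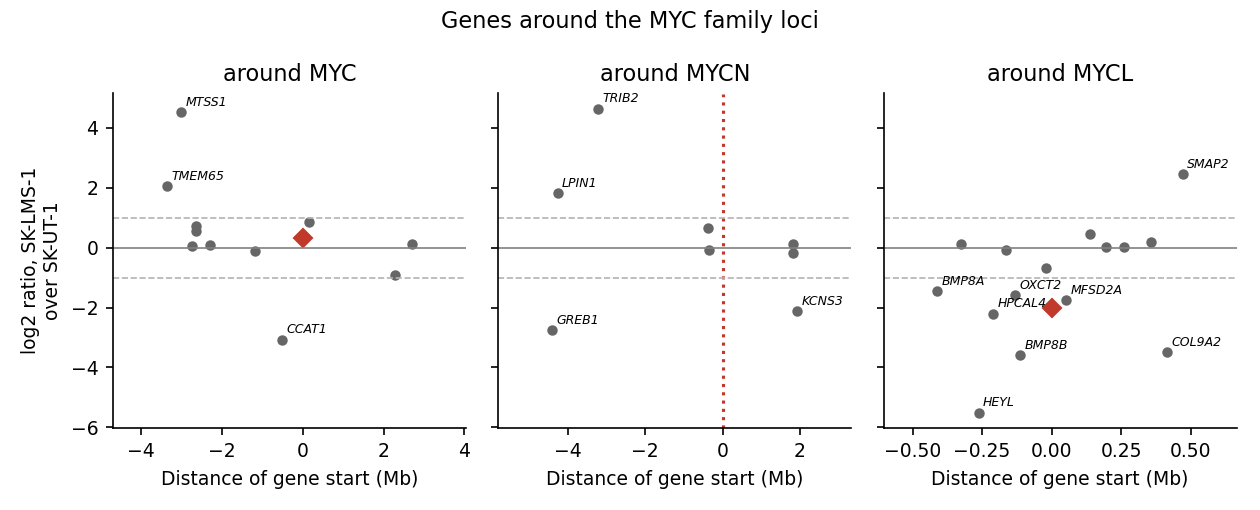
Log2 ratio of TMM-scaled CPM, SK-LMS-1 over SK-UT-1, for the measured genes listed around MYC, MYCN and MYCL, by the distance of their start from the start of the family gene in megabases. Red diamonds mark MYC and MYCL, the dotted line marks MYCN (0 counts in both libraries), dashed lines mark 2-fold, and genes past it are named. Genes past 2-fold lie on both sides of 0 around each locus.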

How the data were processed

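Total RNA was sequenced with a stranded SMARTer kit from TaKaRa, per the labels' protocols. The authors deposited raw counts per gene, made with featureCounts 2.0.1 on hg38 with a UCSC annotation, fragments over exons by gene name with strand setting 1 and overlapping genes each counted, per the file headers. The same table gives the exon length in bases. The sources used here do not name the aligner. A further 2 columns of counts match neither sample and were not used.

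Counts were scaled with edgeR 4.0.16 in R 4.3.3 (TMM, with a factor of 0.949 for SK-LMS-1 against 1.05 for SK-UT-1). TPM were computed from the counts and exon lengths. Ratios are SK-LMS-1 over SK-UT-1, with a count below 3 raised to 3 for the size rule. Intervals for ratios are exact conditional binomial (Clopper-Pearson) and for levels exact Poisson, and take fragments as independent, which amplified reads are not. The procedure was tested on simulated data. The members and lists were chosen with earlier results of these data known. From each list the rule named up to 2 genes per direction with the largest ratio past 2-fold at 5 CPM or more, the nearest genes of MYC, MYCN and MYCL, and the highest gene of each marker list. List genes were matched by symbol, 2 through older names. Results were recomputed with library totals, upper quartiles or DESeq2 1.42.0 size factors, and with other filters, size rules, a floor of 1 count and thinning. A gene that the rule named is not reported here.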

Additional observations from a re-analysis of the deposited data

How the results depend on the processing

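No paired analysis was possible because each line has 1 library, and no library could be left out. Under all scalings, filters and the floor of 1 count, 2 members passed 2-fold towards SK-LMS-1, and 3 towards SK-UT-1 except that the 5 CPM filter, which leaves out MYCL, gave 2. Thinning and, with TMM, a rule on the whole interval each gave 2, losing MXD3. A 4-fold rule left 0 towards SK-LMS-1 (11.4% of measured genes) and 1 towards SK-UT-1 (7.3%): MYCL, whose log2 ratio was -2.03 with a floor of 3 counts and -3.61 with 1. No member ratio changed sign.

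As shares of CPM, without exon length, the MYC proteins, MAX and the repressors made up 23.8%, 11.9% and 64.3% of the member sum in SK-LMS-1 against 16.0%, 7.70% and 76.3% in SK-UT-1. As shares of TPM these were 44.2%, 17.3% and 38.5% in SK-LMS-1 against 35.4%, 13.4% and 51.2% in SK-UT-1. Genes under 350 bases took 14.7% of TPM in SK-LMS-1 against 10.3% in SK-UT-1, and without them MYC stood at 150.1 TPM in SK-LMS-1 against 128 TPM in SK-UT-1.

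With library totals the median around MYC was -0.018 and around MYCN -0.13, and with the upper quartile around MYCN -0.12. With either scaling, genes 2-fold higher in SK-UT-1 were 3 cofactors (1 with TMM) and 2 PRC1.6 partners (1), and the MYC-induced genes past 2-fold were 0 towards SK-LMS-1 (3 with TMM) and 19 towards SK-UT-1 (12). At 5 CPM or more, genes 2-fold higher in SK-UT-1 fell to 2 MYC-repressed genes, 1 MLX branch gene, 0 around MYC, 0 around MYCN and 4 around MYCL, and RNA control genes higher in SK-LMS-1 to 0. The 1.5-fold and 4-fold rules moved most list counts by their construction. MXD3, MXD1 and MYCL, with fewer than 50 counts in a library, are limited most by depth.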
